A study of Rattus norvegicus with 47 samples.

Results

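The tumour necrosis factor (TNF) ligand and receptor superfamily was examined in lung and whole blood of rats that had breathed silica dust. Its members were taken as every gene whose name starts with Tnfsf, for the ligands, or Tnfrsf, for the receptors, in the deposited tables of estimated counts. This gave 30 genes, 11 ligands and 19 receptors, of the 30045 gene models that each of the 4 tables lists, and each name stood for 1 gene model. Superfamily genes with other names, such as Tnf, Ltb and Fas, are described separately below. The animals were healthy male rats of the inbred strain Fischer 344, and the labels give no age. By inhalation with the whole body exposed, for 6 h a day over 5 days, they breathed either filtered air or a fine dust of crystalline silica (Min-U-Sil 5) at 15 mg/m3. Lung and blood were taken 1 day or 6 months later, so that tissue, time and treatment define 8 groups. The 47 libraries are 6 for each group, from separate animals, but 5 for air lungs at 6 months. Which chamber held which animals is not in the labels, so treatment and chamber cannot be told apart.

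Ligands of the superfamily are mostly membrane proteins that act as trimers, and some are also shed from the cell. Their receptors recruit TRAF adaptor proteins, which lead to NF-kB and MAP kinase signalling, or, for receptors that carry a death domain, can start cell death. Several members are costimulatory pairs of activated lymphocytes, such as CD137 (Tnfrsf9), OX40 (Tnfrsf4) and CD30 (Tnfrsf8) with their ligands. Others govern B cell survival (BAFF, Tnfsf13b, and APRIL, Tnfsf13) or the differentiation of osteoclasts and some macrophages (RANK, Tnfrsf11a, its ligand RANKL, Tnfsf11, and the soluble decoy receptor osteoprotegerin, Tnfrsf11b). In lung, alveolar macrophages that take up silica are a known source of TNF.

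The promoters of Tnfrsf9 and Tnfrsf8 are shown because these genes had the highest and the lowest fold change of the superfamily at 1 day in lung, as described below. Each sequence runs 5′ to 3′ from 250 bases before to 50 bases after the start of the gene in RefSeq's annotation of GRCr8, which is not the build of the count tables (Rnor_6.0). Tnfrsf9 lies on the plus strand at chr5:166664244-166664543 and Tnfrsf8 on the minus strand at chr5:162451571-162451870. Capitals mark matches, on either strand, to the NF-kB consensus or to the AP-1 motif TGANTCA.
Tnfrsf9: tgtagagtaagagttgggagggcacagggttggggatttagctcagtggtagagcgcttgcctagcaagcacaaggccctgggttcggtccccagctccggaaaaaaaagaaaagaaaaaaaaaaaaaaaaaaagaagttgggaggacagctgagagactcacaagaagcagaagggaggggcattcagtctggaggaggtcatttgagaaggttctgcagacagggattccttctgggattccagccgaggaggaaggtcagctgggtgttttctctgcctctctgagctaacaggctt
Tnfrsf8: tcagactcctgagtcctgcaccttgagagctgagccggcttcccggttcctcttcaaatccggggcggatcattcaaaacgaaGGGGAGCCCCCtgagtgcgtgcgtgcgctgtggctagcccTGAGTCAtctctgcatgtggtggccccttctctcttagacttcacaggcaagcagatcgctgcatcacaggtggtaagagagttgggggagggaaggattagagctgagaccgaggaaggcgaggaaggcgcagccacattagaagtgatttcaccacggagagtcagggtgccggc
The Tnfrsf8 window held a pair of overlapping NF-kB consensus matches between 167 and 157 bases before the start and an AP-1 match from 127 to 121 bases before it. In the Tnfrsf9 window neither motif was matched, which says only that these letters are not in these 300 bases. Of the 30 members 22 had a promoter in the reference. The NF-kB consensus matched 2 of those 22 (Tnfrsf8 and Tnfsf14) and 7.51% of 33469 promoters of the same length, and TGANTCA matched 2 of the 22 (Tnfrsf1b and Tnfrsf8) and 7.33%. A match is a description of the sequence and not evidence of binding.

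Total estimated counts, in units of 1e6, ran from 9.64 to 25.9 per library, and libraries of a group correlated with one another at a mean Spearman's rho of 0.983 to 0.993. Levels are given as CPM, counts scaled to 1e6 per library with TMM factors within each table, and fold changes as log2 of silica over air ± SE from edgeR's quasi-likelihood test. A gene is said to have risen or fallen where its p, adjusted by the Benjamini-Hochberg method over all genes tested, was under 0.05. Since CPM is not divided by transcript length, levels are compared between samples and not between genes. The libraries came from 26 animals, and the spread behind the p-values is that between animals of the same group.

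At 1 day in lung, the transcript of the costimulatory receptor Tnfrsf9 was 4.08-fold as abundant in silica as in air animals, and that of Tnfrsf11a 1.67-fold. Tnfrsf8 fell to 0.432 times its air level. Of 24 members with enough counts to test, 3 rose and 1 fell, so 16.7% were called, against 14.1% of all 15331 genes tested (8.39% higher and 5.72% lower). The superfamily's share of calls was thus close to that of all genes, and its median log2 fold change of -0.01 lay near that of all genes, -0.00242. Among 7 tested ligands 1 rose, and among 17 tested receptors 2 rose and 1 fell.

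Tnfrsf9 encodes CD137, a receptor that appears on T cells, NK cells and other leukocytes after activation. Its level in air animals at 1 day had a lowest value of 0.908, a median of 1.06 and a highest value of 1.88 CPM (n = 6), and in silica animals a lowest of 3.18, a median of 5.03 and a highest of 6.07 CPM (n = 6). All silica libraries lay above all air libraries, with 50 to 80 counts against 11 to 29. The log2 fold change of Tnfrsf9 was 2.03 ± 0.20 (edgeR, adjusted p = 1.2e-05). In bulk tissue, a change in the number of cells of a type and a change in RNA per cell cannot be told apart.

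Tnfrsf11a encodes RANK, the receptor of RANKL on osteoclast precursors and other myeloid cells. Its level was 11.7, 12.6 and 15.0 CPM in air animals at 1 day (lowest, median and highest) and 19.2, 21.3 and 24.1 CPM in silica animals. The groups did not overlap, and the log2 fold change was 0.74 ± 0.074 (edgeR, adjusted p = 1.7e-05). The reference table also lists Tnfrsf11a as another name of Zcchc2, but the count tables carry both genes separately.

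Tnfrsf8 encodes CD30, a receptor of activated T and B cells. Its lowest, median and highest level was 10.6, 13.8 and 17.3 CPM in air lungs and 4.01, 5.46 and 8.18 CPM in silica lungs at 1 day. Every silica library lay below every air library, with a log2 fold change of -1.21 ± 0.17 (edgeR, adjusted p = 3.5e-04).

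Tnfsf13, which encodes the B cell factor APRIL, was the ligand that rose at 1 day. It stood at 86.6, 91.3 and 121 CPM in air animals (lowest, median and highest) and at 110, 114 and 125 CPM in silica animals. The groups overlapped, because 1 air animal, number 38, had 121 CPM and the other air animals had at most 108. The log2 fold change of Tnfsf13 at 1 day was 0.25 ± 0.076 (edgeR, adjusted p = 0.0435), and the call was lost on leaving out any library except those of air animals 37 and 38 (adjusted p from 0.0023 to 0.107 over the 12 fits). Tnfsf12 (TWEAK) neighbours Tnfsf13 on chromosome 10, and how reads that span both genes were assigned is not given in the sources used here. Tnfsf12 did not pass the test at 1 day, with a log2 fold change of -0.12 ± 0.038 (edgeR, adjusted p = 0.0552). It passed under 6 alternatives (adjusted p = 0.0218 to 0.0491), which were DESeq2, RLE factors, all 4 lung groups in 1 model, and the fits without air animal 42, silica animal 43 or silica animal 45.

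The other 20 tested members at 1 day had log2 fold changes from -0.41 to 0.45 and did not pass. Both classic TNF receptors were among them. Tnfrsf1a, the death-domain receptor TNFR1, had a log2 fold change of 0.10 ± 0.040 (edgeR, adjusted p = 0.127). For Tnfrsf1b (TNFR2) the value was 0.13 ± 0.053 (edgeR, adjusted p = 0.109), and it passed only on leaving out silica animal 45 (adjusted p = 0.0490).

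**Figure D1:**
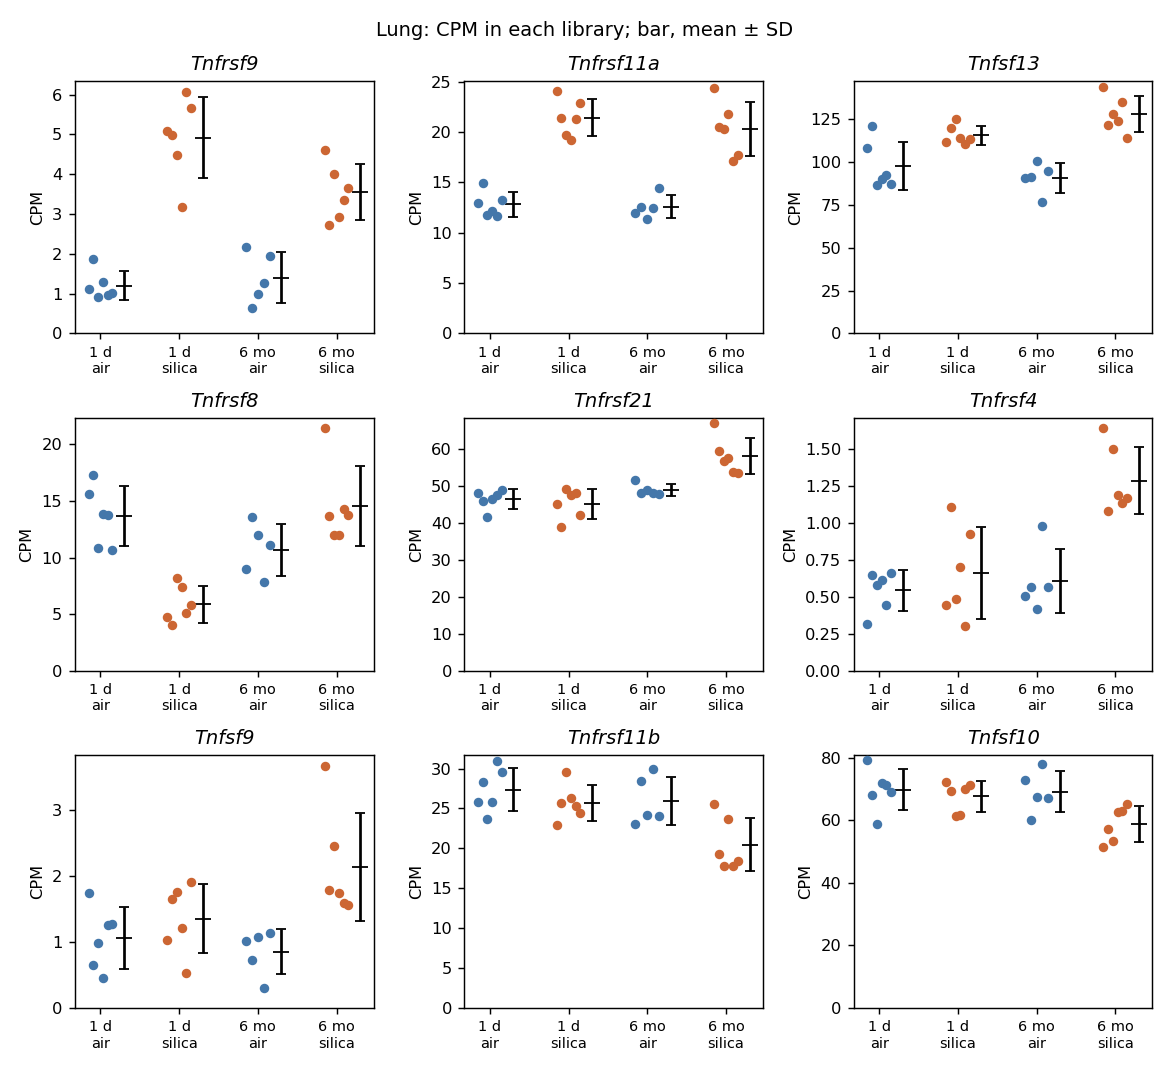
CPM of the 9 members that passed the test at 1 time or both in lung, in each library (points, air in blue and silica in orange; 1 d, 1 day; 6 mo, 6 months), with the mean ± SD beside them and a y axis that starts at 0. Tnfrsf9 and Tnfrsf11a were higher in every silica library than in every air library of the same time, and Tnfrsf8 was lower at 1 day, from 4.01 to 8.18 CPM in silica against 10.6 to 17.3 in air.

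At 6 months in lung, Tnfrsf9 and Tnfrsf11a remained higher in silica than in air animals, by 2.49-fold and 1.61-fold. The CD137 ligand Tnfsf9 and the costimulatory receptor Tnfrsf4 were also higher, by 2.49-fold and 2.08-fold, and Tnfsf13 by 0.49 on the log2 scale. Of 25 members tested 6 rose and 2 fell, so 32% were called, against 16.2% of all 15309 genes tested (9.84% higher and 6.38% lower). Of 7 tested ligands 2 rose and 1 fell, and of 18 tested receptors 4 rose and 1 fell. The members' median log2 fold change was 0.11, and that of all genes was -0.00801.

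Tnfsf9 encodes the ligand of CD137, found on antigen-presenting cells. The 5 air animals at 6 months had Tnfsf9 levels of 0.300, 0.730, 1.01, 1.07 and 1.13 CPM, and silica animals a lowest of 1.56, a median of 1.77 and a highest of 3.67 CPM. All silica libraries were above all air libraries, on 20 to 47 counts against 4 to 14, and the log2 fold change was 1.32 ± 0.32 (edgeR, adjusted p = 0.0154).

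Its receptor Tnfrsf9 stood at 0.649, 0.992, 1.27, 1.94 and 2.17 CPM in the 5 air lungs at 6 months. In silica lungs the lowest, median and highest Tnfrsf9 level was 2.72, 3.50 and 4.60 CPM, again above every air library. Counts were 47 to 67 in silica against 8 to 30 in air lungs. The log2 fold change of Tnfrsf9 was 1.32 ± 0.26 (edgeR, adjusted p = 0.00506).

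Tnfrsf4 encodes OX40, a costimulatory receptor of activated T cells. Air animals had 0.413, 0.506, 0.565, 0.568 and 0.975 CPM of Tnfrsf4 at 6 months, and silica animals a lowest of 1.08, a median of 1.18 and a highest of 1.64 CPM. The groups did not overlap, although the counts were low, 5 to 13 in air and 15 to 25 in silica, and the log2 fold change was 1.06 ± 0.24 (edgeR, adjusted p = 0.00991). DESeq2 gave no adjusted p for Tnfrsf4. At 1 day Tnfrsf4 had 4 to 17 counts per lung library and was not tested.

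Tnfsf13 was 76.9, 90.8, 91.6, 94.9 and 101 CPM in air lungs at 6 months. In silica lungs Tnfsf13 had a lowest level of 114, a median of 126 and a highest of 144 CPM, so that the groups were apart. Its log2 fold change was 0.49 ± 0.070 (edgeR, adjusted p = 7.0e-04).

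Tnfrsf11a at 6 months was 11.4, 12.0, 12.4, 12.6 and 14.4 CPM in air lungs. The lowest, median and highest Tnfrsf11a level in silica lungs was 17.2, 20.4 and 24.4 CPM. No silica library was as low as an air library, and the log2 fold change was 0.69 ± 0.095 (edgeR, adjusted p = 5.5e-04).

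Tnfrsf21 encodes death receptor 6, which carries a death domain. It was 47.9, 48.1, 48.2, 48.9 and 51.6 CPM in air lungs at 6 months and 53.7, 57.3 and 67.1 CPM in silica lungs (lowest, median and highest). The difference in Tnfrsf21 was small, with a log2 fold change of 0.25 ± 0.055 (edgeR, adjusted p = 0.00918), and without overlap of the groups.

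Both members that fell at 6 months bind ligands or receptors of the TRAIL and RANKL axes. Osteoprotegerin, Tnfrsf11b, a soluble decoy that binds RANKL and TRAIL, was 23.0, 24.0, 24.2, 28.4 and 29.9 CPM in air lungs and 17.8, 18.9 and 25.5 CPM in silica lungs (lowest, median and highest). Silica animals 58 and 61, at 25.5 and 23.7 CPM, lay within the air range of Tnfrsf11b and the other 4 below it, and the log2 fold change was -0.35 ± 0.11 (edgeR, adjusted p = 0.0452). On leaving out single libraries this call was kept only without air animal 49 or silica animal 58 or 61, and was lost in the other 8 of 11 fits (adjusted p from 0.0145 to 0.106).

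Tnfsf10 encodes TRAIL, a ligand that can start cell death through death receptors. Its level was 60.2, 67.3, 67.6, 72.7 and 78.0 CPM in air lungs at 6 months and 51.6, 59.9 and 65.1 CPM in silica lungs (lowest, median and highest). The groups overlapped, since the lowest air animal lay below 3 silica animals at 62.7 to 65.1 CPM. The log2 fold change of Tnfsf10 was -0.23 ± 0.075 (edgeR, adjusted p = 0.0493), and the call was kept only without air animal 51 or silica animal 61, 62 or 64 (adjusted p from 0.0245 to 0.115 over 11 fits).

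Silica animal 58 was the farthest in the direction of the change for 7 of the 8 called members at 6 months, the exception being Tnfrsf11b. These are 7 readings of 1 library, and how often animal 58 was farthest over all called genes was not counted. Without the library of animal 58, 7 members were still called, and Tnfsf10 was not (edgeR, adjusted p = 0.0899). The library of animal 58 also had the lowest mean correlation with the others of its group, a Spearman's rho of 0.990. The other 17 tested members at 6 months had log2 fold changes from -0.49 to 0.44. Among them was Tnfrsf12a, the TWEAK receptor, at 0.44 ± 0.21 (edgeR, adjusted p = 0.167).

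**Figure D2:**
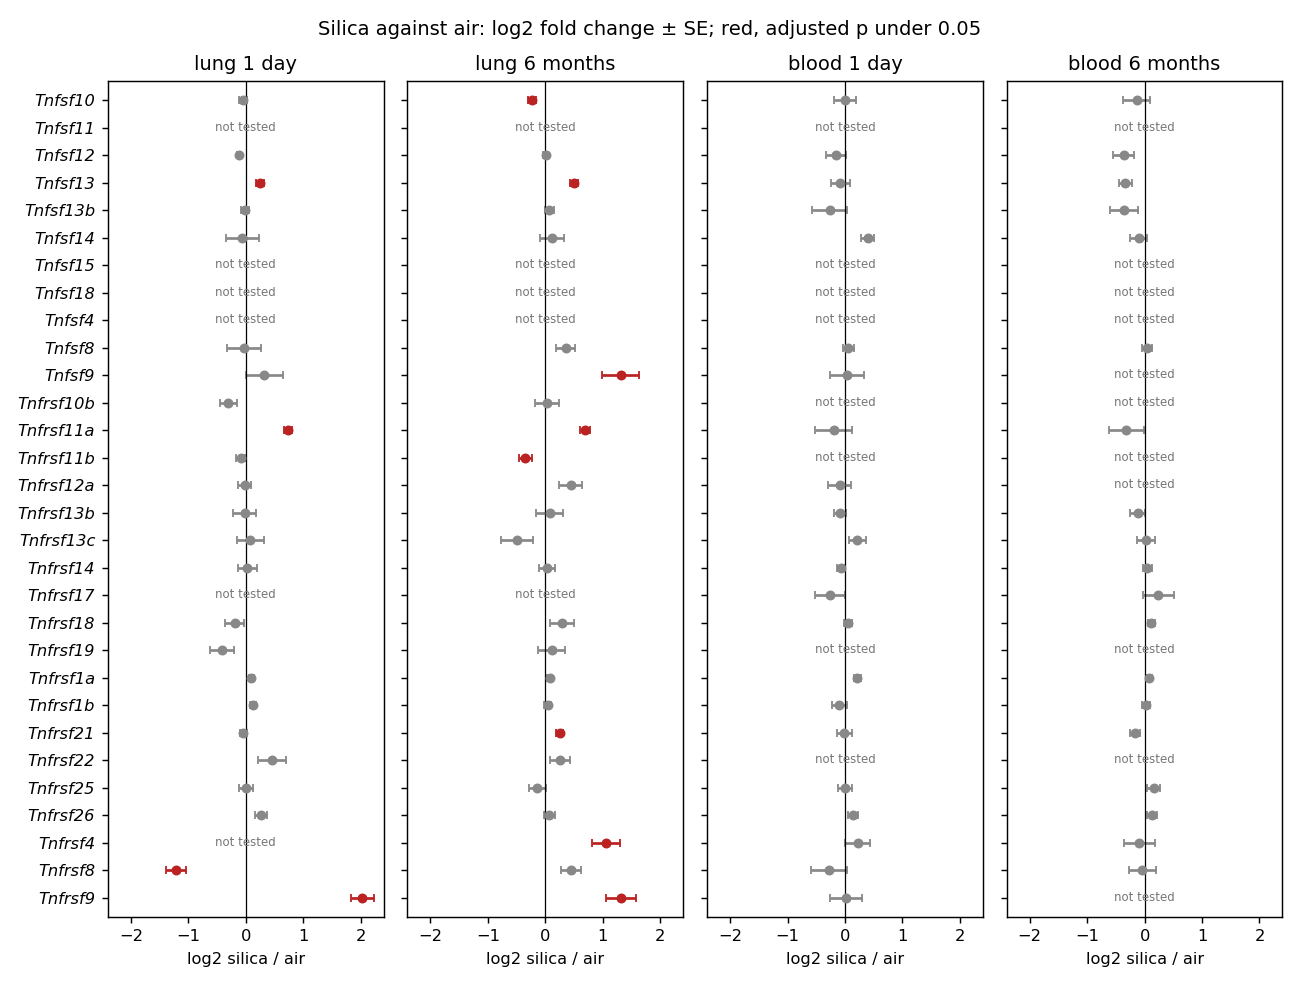
Log2 fold change of silica over air ± SE (x axis) of each of the 30 members (y axis, ligands above receptors) in the 4 comparisons, red where the adjusted p was under 0.05 and grey where it was not. Red points stand in the lung panels only, 4 at 1 day and 8 at 6 months, and members with too few counts are marked as not tested.

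The silica effect on Tnfrsf8 in lung differed between the times. At 6 months Tnfrsf8 was 7.80, 8.96, 11.1, 12.0 and 13.5 CPM in air lungs and 12.0, 13.7 and 21.5 CPM in silica lungs (lowest, median and highest), which overlapped. Its log2 fold change at 6 months was 0.44 ± 0.17 (edgeR, adjusted p = 0.0981), against the fall at 1 day. DESeq2 called this rise, with an adjusted p of 0.0498. The difference between the effects, 6 months minus 1 day, was 1.66 ± 0.26 on the log2 scale (edgeR interaction, adjusted p = 0.00172), and it held in each of the 23 fits that left out 1 library (adjusted p up to 0.00537).

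Tnfrsf8 was the single member called in that interaction, 1 of 25 tested, or 4%, where 1.375% of all 15786 genes were called. Members called at 1 time only, such as Tnfsf9, Tnfrsf21 and Tnfsf10, are therefore not shown to have differed between the times. For Tnfrsf21 the difference was 0.29 ± 0.083 (edgeR interaction, adjusted p = 0.0820), and it passed in DESeq2 and without air animal 39 (adjusted p = 0.0428 to 0.0447). For Tnfsf9 it was 0.99 ± 0.48 (adjusted p = 0.372). The effects on Tnfrsf11a at the 2 times differed by -0.04 ± 0.12 on the log2 scale (adjusted p = 0.917).

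Ligands were then set beside their receptors in 27 pairs known from the literature, superfamily genes with other names included. CD137 and its ligand rose together at 6 months, as did Ltb and Ltbr, and osteoprotegerin and TRAIL fell together. The calls of osteoprotegerin and TRAIL were lost in 8 and 7 of the 11 fits that left out 1 library. At 1 day in lung both genes could be tested in 13 pairs, and in 0 of these were both called by edgeR. The ligand alone was called in 2 of the 13 (Tnfsf13 with Tnfrsf13b, and Ltb with Ltbr) and the receptor alone in 2 (Tnfrsf8 and Tnfrsf9). In 3 further pairs 1 gene was called and its partner could not be tested. At 6 months 12 pairs could be tested on both sides. Both genes were called in 3 of the 12, the ligand alone in 2 (Tnfsf10 with Tnfrsf10b, and Tnfsf13 with Tnfrsf13b) and the receptor alone in 1 (Ltbr with Tnfsf14). In 4 further pairs 1 gene was called and its partner could not be tested. Of all genes tested in lung, 14.1% were called at 1 day and 16.2% at 6 months. Tnfsf10 and Ltbr each stand in more than 1 of the 12 pairs, so the pairs are not independent. Their counts are a description.

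For CD137, the receptor was called at both times, while for the ligand Tnfsf9 the log2 fold change at 1 day was 0.33 ± 0.33 (edgeR, adjusted p = 0.571). At that time Tnfsf9 was 0.457, 1.12 and 1.75 CPM in air lungs and 0.531, 1.433 and 1.92 CPM in silica lungs (lowest, median and highest), which overlapped widely. CD30 showed the same form at 1 day, a receptor that fell beside a ligand, Tnfsf8, whose log2 fold change was -0.04 ± 0.29 (edgeR, adjusted p = 0.958). For APRIL it was the ligand that rose. Its receptor TACI, Tnfrsf13b, had log2 fold changes of -0.02 ± 0.20 at 1 day and 0.08 ± 0.24 at 6 months (edgeR, adjusted p = 0.974 and 0.856). Its other receptor BCMA, Tnfrsf17, which marks plasma cells, had at most 14 counts in any lung library and was not tested there.

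RANKL, Tnfsf11, was near the limit of detection. It had 0 counts in 15 of 23 lung libraries and at most 6 in the others, and 0 in 18 of 24 blood libraries and at most 11 in the others. These are estimates shared between gene models, since 11 of its 47 values were off a whole number by over 0.01. Its receptor and its decoy were both measured in lung, and their ratio was computed in each library as a description, with no test, because the genes were chosen with their results known. At 1 day Tnfrsf11b itself did not pass the test, at 23.7, 27.1 and 31.0 CPM in air and 23.0, 25.5 and 29.6 CPM in silica lungs (lowest, median and highest), with a log2 fold change of -0.09 ± 0.072 (edgeR, adjusted p = 0.455). The ratio of Tnfrsf11a to Tnfrsf11b counts at 1 day was 0.471 ± 0.0536 in air (SD, n = 6, range 0.378 to 0.529) and 0.843 ± 0.138 in silica lungs (SD, n = 6, range 0.665 to 1.05). At 6 months it was 0.490 ± 0.0728 in air (SD, n = 5, range 0.416 to 0.601) and 1.00 ± 0.0849 in silica lungs (SD, n = 6, range 0.918 to 1.14). The ratio was higher in every silica library than in every air library at both times. Its size has no meaning in molecules, as counts are not scaled by transcript length.

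**Figure D3:**
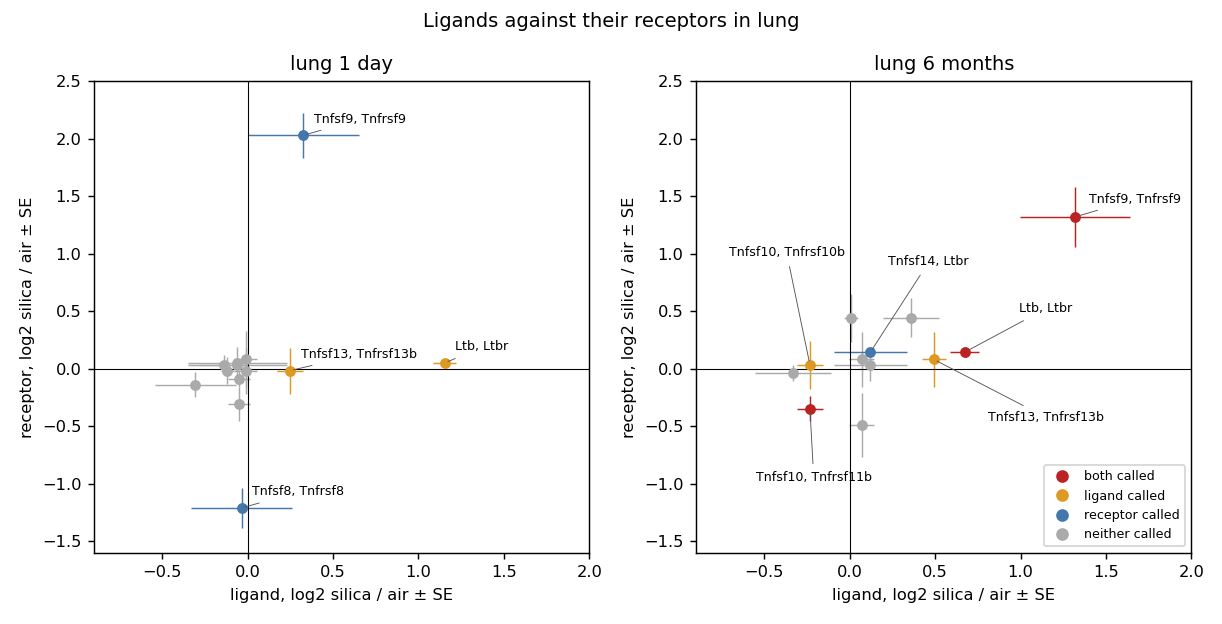
Log2 fold change ± SE of the receptor (y axis) against that of its ligand (x axis) for the pairs tested on both sides in lung, 13 at 1 day and 12 at 6 months, coloured by which gene was called. Tnfsf9 and Tnfrsf9 lie at the upper right at 6 months, both at 1.32, while at 1 day the receptor stands at 2.03 and the ligand at 0.33.

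**Figure D4:**
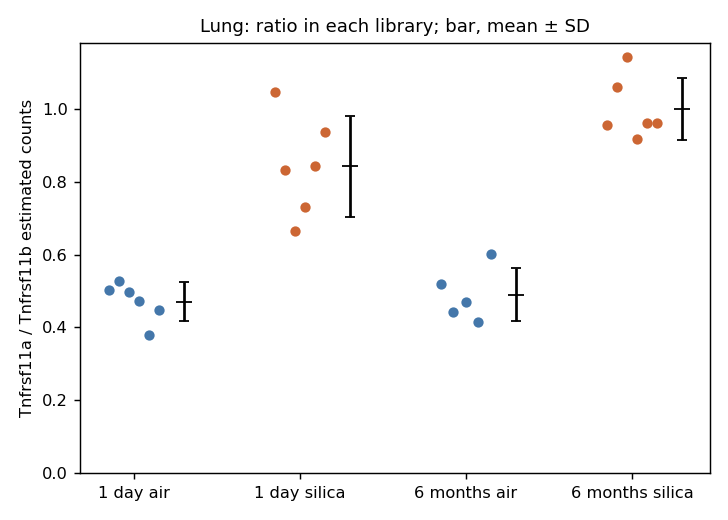
Ratio of Tnfrsf11a to Tnfrsf11b estimated counts in each lung library (points, air in blue and silica in orange), with the mean ± SD beside them and a y axis that starts at 0. Silica libraries lie at 0.665 and above, and air libraries at 0.601 and below.

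In blood no member was called at either time. At 1 day 22 members were tested and edgeR called 0, against 1.371% of all 12253 genes. At an unadjusted p under 0.05 there were 2, and DESeq2 and limma-voom also called 0 members. These were the LIGHT ligand Tnfsf14, a costimulator of T cells, and Tnfrsf1a. Tnfsf14 was 4.30, 5.20 and 5.89 CPM in air blood and 5.03, 6.93 and 8.21 CPM in silica blood (lowest, median and highest), with a log2 fold change of 0.39 ± 0.12 (edgeR, adjusted p = 0.142). Tnfrsf1a was 69.7, 72.3 and 77.8 CPM in air blood and 71.8, 86.9 and 97.4 CPM in silica blood, with a log2 fold change of 0.22 ± 0.065 (edgeR, adjusted p = 0.142). Both overlapped between the groups. Tnfrsf1a passed on leaving out silica animal 43 (adjusted p = 0.0292) and Tnfsf14 on leaving out silica animal 47 (adjusted p = 0.0475).

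At 6 months in blood 19 members were tested and edgeR called 0, against 0.0086% of all 11629 genes, a single gene. The 11 members not tested, for low counts, included Tnfrsf9 and its ligand Tnfsf9. Tnfrsf9 had 0.422 to 0.733 CPM in air and 0.684 to 1.03 CPM in silica blood. Tnfsf9 had 0.366 to 1.18 and 0.477 to 1.21 CPM. At an unadjusted p under 0.05 there was 1 member, Tnfsf13, and DESeq2 and limma-voom called 0. Tnfsf13 was 28.3, 35.6 and 42.3 CPM in air blood and 18.6, 28.7 and 33.3 CPM in silica blood (lowest, median and highest), which overlapped, with a log2 fold change of -0.33 ± 0.12 (edgeR, adjusted p = 0.539). In blood the silica effect at 6 months minus 1 day was called for 0 of 22 members by edgeR, where 0% of 12444 genes passed. In that interaction 1 member had an unadjusted p under 0.05, and DESeq2 and limma-voom called 0 members.

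The silica effects in blood and lung were compared directly as well. At 1 day the effect on Tnfrsf9 was lower in blood than in lung by 1.96 on the log2 scale (-1.96 ± 0.34, edgeR interaction, adjusted p = 9.1e-04). In blood Tnfrsf9 was 0.496, 0.602 and 1.423 CPM in air animals and 0.565, 0.761 and 0.986 CPM in silica animals at 1 day, on 6 to 22 counts, and its log2 fold change was 0.02 ± 0.28. Tnfrsf9 was the single member called of 26 tested, where 4.03% of all 15989 genes were called. Only 20 of the 26 had passed the filter on low counts in both tissues on their own. Among the others, Tnfrsf10b and Tnfrsf19 had 0 blood counts throughout, so nothing is read from the share. It remained past the threshold with the animal as a block, at -1.91 ± 0.36 (adjusted p = 0.0109).

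At 6 months the effect differed between the tissues for 3 of 25 members, and 3.53% of all 15790 genes were called. Of the 25 members 18 had passed the filter in both tissues on their own, and again nothing is read from the share. The effect on Tnfsf13 was lower in blood by 0.80 (-0.80 ± 0.14, edgeR interaction, adjusted p = 0.00289), and with the animal as a block by 0.85 (-0.85 ± 0.17, adjusted p = 0.0319). For Tnfrsf21 the difference was -0.38 ± 0.10 (adjusted p = 0.0390) and for Tnfrsf11a -0.99 ± 0.27 (adjusted p = 0.0447). With the animal as a block neither passed, with adjusted p = 0.114 for Tnfrsf21 and 0.105 for Tnfrsf11a. Each of these calls was also lost in 16 of 23 fits that left out 1 library. That of Tnfrsf11a was kept without blood of air animals 52 and 56 or silica animals 58 and 60, or lung of air animal 54 or silica animals 62 and 64. That of Tnfrsf21 was kept without blood of air animals 54 and 56 or silica animals 58 and 60, or lung of air animal 49 or silica animals 62 and 64. Tnfsf9 had not passed the filter in blood on its own, on 4 to 20 counts per library. Its difference was -1.56 ± 0.45 (edgeR interaction, adjusted p = 0.0536). It passed under 6 alternatives (adjusted p = 0.0170 to 0.0476), which were DESeq2, upper-quartile factors, robust dispersions, and the fits without blood of air animal 55 or silica animal 61 or lung of silica animal 64.

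The tissues differed in which members they expressed, although the lung and blood tables were normalised separately and blood RNA alone was depleted of globin, so levels across them are a description without a test. Of the 30 members 13 were higher in each of the 23 lung libraries than in each of the 24 blood libraries, 8 were higher in each blood library and 9 overlapped. Of all 23582 gene models with a count in any library, 46.5% were higher in each lung library, 6.44% were higher in each blood library and 47.1% overlapped. On the lung side were the ligands Tnfsf10, Tnfsf12, Tnfsf13, Tnfsf13b and Tnfsf18. Tnfsf10 had a median of 67.6 CPM in lung and 1.07 CPM in blood. Receptors on that side were Tnfrsf8, Tnfrsf10b, Tnfrsf11a, Tnfrsf11b, Tnfrsf12a, Tnfrsf19, Tnfrsf21 and Tnfrsf22. Tnfrsf10b, the TRAIL receptor, and Tnfrsf19 had 0 counts in all 24 blood libraries, and Tnfrsf11b had 1 count in 1 of them.

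On the blood side were the ligands Tnfsf8 and Tnfsf14 and the receptors Tnfrsf13b, Tnfrsf13c, Tnfrsf14, Tnfrsf18, Tnfrsf25 and Tnfrsf26. Several of these are lymphocyte receptors. Tnfrsf14, the receptor of LIGHT, had a median of 177 CPM in blood and 13.9 CPM in lung. Tnfrsf13c, the BAFF receptor of B cells, had medians of 9.71 and 1.11 CPM, and Tnfrsf18 (GITR), a receptor of regulatory and activated T cells, 18.7 and 2.21 CPM. Tnfrsf22 and Tnfrsf26 are neighbouring genes on chromosome 1 and related in sequence, and 0 of the 47 values of either were off a whole number by over 0.01.

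**Figure D5:**
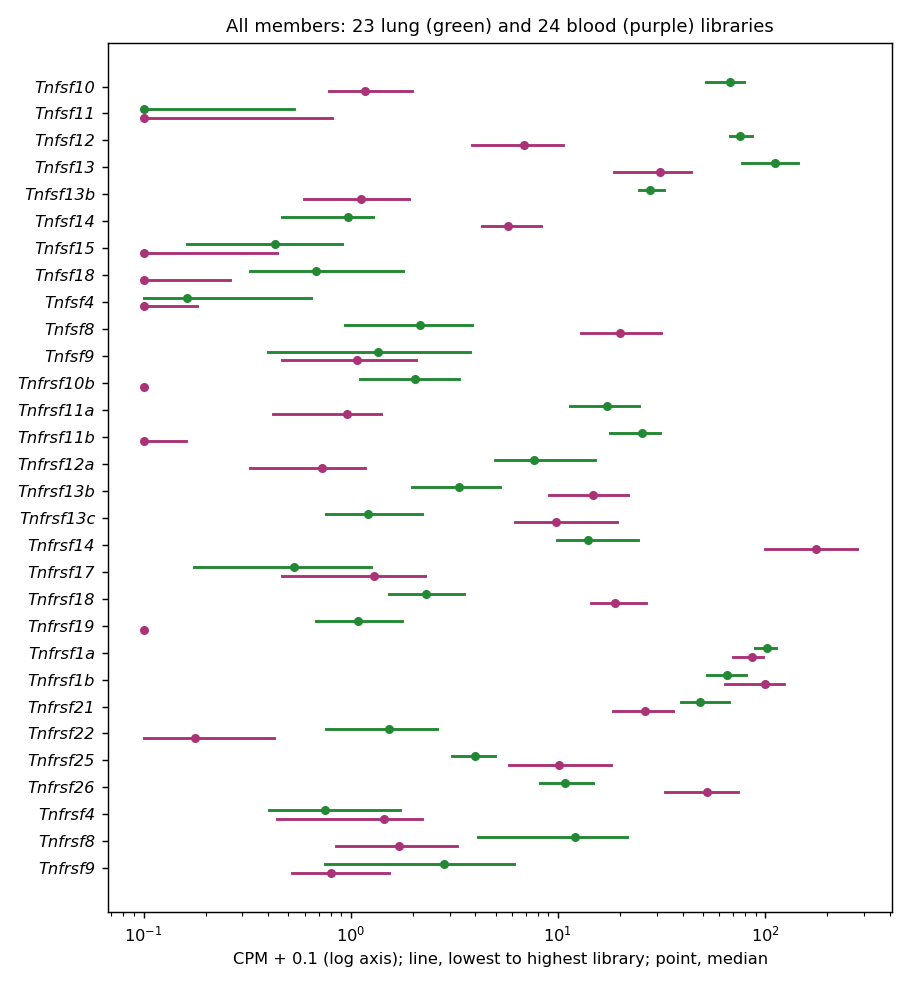
CPM plus 0.1 (x axis, log scale) of the 30 members (y axis), as the median (point) and the lowest to highest library (line) in 23 lung libraries (green) and 24 blood libraries (purple). The lines are to be compared between tissues within a gene, and they are apart for 21 members, as for Tnfsf10 with medians of 67.6 and 1.07 CPM. Over all gene models with a count, 46.5% lay apart on the lung side and 6.44% on the blood side.

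Superfamily genes with other names were described by the same fits. Of 7 such ligands 4 could be tested at 1 day in lung, where 1 rose and 1 fell, beside 8.39% and 5.72% of all genes. Ltb, lymphotoxin beta, which organises lymphoid tissue, was 19.4, 22.2 and 22.5 CPM in air lungs and 41.3, 48.3 and 54.9 CPM in silica lungs (lowest, median and highest). Its groups did not overlap, and the log2 fold change was 1.15 ± 0.070 (edgeR, adjusted p = 3.9e-07). At 6 months Ltb had a log2 fold change of 0.67 ± 0.084 (edgeR, adjusted p = 3.2e-04), with 21.8 to 29.2 CPM in air and 37.3 to 45.8 CPM in silica lungs. Eda, ectodysplasin, fell at 1 day by 0.42 ± 0.11 on the log2 scale (edgeR, adjusted p = 0.0143). Of 6 tested receptors with other names 1 rose at 6 months, beside 9.84% of all genes. This was Ltbr, the receptor of lymphotoxin beta (0.14 ± 0.039, edgeR, adjusted p = 0.0244), and at 1 day its value was 0.05 ± 0.039 (adjusted p = 0.462). In blood the smallest adjusted p among these genes was that of the death receptor Fas at 1 day, with a log2 fold change of 0.39 ± 0.092 (edgeR, adjusted p = 0.0502).

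Downstream of the receptors, 7 of 25 tested adaptor and proximal signalling genes rose at 1 day in lung, where 8.39% of all genes tested rose, and none of the 25 fell. They were Ikbkb, Cyld, Birc3, Traf4, Birc2, Ripk1 and Traf3. Ikbkb, a kinase of the IKK complex, had a log2 fold change of 0.19 ± 0.033, the deubiquitinase gene Cyld 0.22 ± 0.039 and Birc3, a ubiquitin ligase of receptor complexes, 0.54 ± 0.11 (edgeR, adjusted p = 0.0014, 0.0019 and 0.0047). At 6 months Birc2 (0.21 ± 0.054) and Ikbkb (0.13 ± 0.034) rose and Rnf31 (-0.16 ± 0.050) fell, where 9.84% of all genes rose and 6.38% fell. The median log2 fold change of the 25 genes was 0.09 at 1 day and 0.03 at 6 months, beside -0.00242 and -0.00801 over all genes. Of 20 NF-kB and TNF-induced genes 7 rose at 1 day and 4 at 6 months, beside the same 8.39% and 9.84% of all genes. Both lists were chosen with earlier results of these data known, so these counts are a description. At 1 day the smallest p-values among them were those of Cx3cl1 (1.09 ± 0.072), Tnfaip2 (1.06 ± 0.090) and Bcl3 (0.78 ± 0.088), and at 6 months those of Cx3cl1 (0.55 ± 0.074), Tnfaip2 (0.65 ± 0.12) and Tnip2 (0.29 ± 0.061). In blood the smallest adjusted p over both lists was 0.0603, that of Cyld at 1 day.

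Markers of cell types were counted in lung in the same way, and their part in the members' changes was not tested. Of all genes tested in lung, 8.39% rose and 5.72% fell at 1 day, and 9.84% rose and 6.38% fell at 6 months. These shares stand beside every lung marker list below. A single call within a list is not read as a change of that cell type. Of 12 T cell markers 1 fell at 1 day (Cd4) and 1 at 6 months (Cd8a), and the rest did not pass. Their summed level was 168 to 208 CPM in air and 150 to 185 CPM in silica lungs at 1 day, and 177 to 220 and 154 to 210 CPM at 6 months. Neutrophil markers rose in 6 of 7 tested genes at 1 day and 3 of 8 at 6 months, with summed levels of 114 to 243 CPM in air and 297 to 658 CPM in silica lungs at 1 day, and 213 to 320 and 422 to 614 CPM at 6 months.

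Of 7 tested monocyte and macrophage markers 5 rose and 1 (Csf1r) fell at 1 day, and 4 rose and 1 (Csf1r) fell at 6 months. Their sum was 635 to 823 CPM in air and 681 to 865 CPM in silica lungs at 1 day, and 699 to 823 and 877 to 1017 CPM at 6 months. Endothelial markers fell in 4 of 7 genes at 1 day and in 7 of 7 at 6 months, where their sum was 3856 to 4270 CPM in air and 3072 to 3610 CPM in silica lungs. Among 8 tested B cell and plasma cell markers 1 (Sdc1) rose and 1 (Cd22) fell at 6 months. Alveolar type 2 markers rose in 2 and fell in 1 of 7 genes at 1 day and rose in 6 of 7 at 6 months, and alveolar type 1 markers fell in 5 of 7 and 3 of 7.

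NK and cytotoxic markers, of cells that can carry CD137, did not pass at 1 day in any of 8 genes, and 1 (Gzmb) fell at 6 months. Their median log2 fold change was -0.25 and -0.43, and their sum was 156 to 229 CPM in air and 148 to 198 CPM in silica lungs at 1 day, and 187 to 296 and 113 to 224 CPM at 6 months. Of 7 erythroid markers 1 (Tfrc) rose and 5 fell at 1 day, and 1 (Tfrc) rose and 1 (Hba1) fell at 6 months, with sums of 3804 to 5058 CPM in air and 2881 to 3800 CPM in silica lungs at 1 day. Fibroblast and smooth muscle markers fell in 2 of 8 genes at each time. Airway markers rose in 1 and fell in 1 of 6 tested genes at 1 day and rose in 1 of 6 at 6 months. Of 3 tested platelet markers 1 (Itga2b) fell at 1 day, and the 4 tested at 6 months had adjusted p from 0.104 to 0.407 (edgeR). Eosinophil, basophil and mast cell markers rose in 1 and fell in 1 gene at each time, of 5 and 6 tested. No marker of these lists found in the tables was at 0 throughout a lung group. In blood at 1 day 4 of 8 neutrophil markers rose, where 1.371% of all genes were called in either direction. The sum of these markers was 2112 to 2713 CPM in air and 3467 to 4277 CPM in silica animals.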

How the data were processed

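RNA was sequenced from lung and from globin-depleted whole blood, with stranded libraries of polyadenylated RNA, per the labels' protocols. The submitters' processing notes name Salmon 1.10.1, STAR 2.6.1d, cutadapt 3.4, bcl2fastq 2.19, Trim Galore 0.6.7 and the build Rnor_6.0, without role or order. The deposited values are expected counts per gene, not normalised by the authors as far as the values show, in 1 table for each tissue and time, and were rounded here. Reads that match several similar genes are shared among them in such estimates. All columns were matched to samples by title.

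Silica was compared with air within each table by the quasi-likelihood test of edgeR 4.0.16 in R 4.3.3 (filterByExpr at a minimum of 10 counts, TMM factors, Benjamini-Hochberg adjustment over all genes tested, threshold 0.05). Differences of effects between times or tissues were interactions over 4 groups. Each SE was taken as the absolute log2 fold change divided by the square root of F. The tests were checked on simulated counts, in which all genes had the same dispersion and changes were placed only in genes with higher counts. Recovery of changes in genes with low counts, such as Tnfrsf4, was not checked. Libraries of a group differed by more than sampling noise (chi-square per degree of freedom 3.64 to 34.3), so each counted as 1 replicate. Lung and blood titles share animal numbers, taken here as the same animal. After subtraction of group means such libraries correlated from -0.0476 to 0.0923 at 1 day (12 pairs) and from -0.0445 to 0.0588 at 6 months (9 pairs), and the block was an alternative.

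The members, the 17 gene lists and the 27 pairs were chosen with earlier results of these data known. Every member past the threshold in a comparison is named with its values, and of the adaptor and NF-kB lists the 3 smallest p-values. Of 169 listed genes 164 were found in the tables. Other alternatives were DESeq2 1.42.0, limma-voom (limma 3.58.1), normalisation by upper quartile or RLE, no filter or a minimum count of 50, summed gene models of 1 name, robust dispersions, a test against a 1.2-fold change, all groups of a tissue in 1 model, and each library left out in turn. Promoters came from RefSeq (GRCr8), matched by symbol.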

Additional observations from a re-analysis of the deposited data

Results flagged for a closer look

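In groups of 4 to 10 libraries, a library whose gap to its nearest neighbour was a large part of the group's range was picked out with Dixon's criterion, which chance meets in about 1 of 20 groups. Among 77 groups of values 8 met it. In lung at 6 months, silica animal 58 had 21.5 CPM of Tnfrsf8, where the next highest had 14.3. Air animal 49 had 51.6 CPM of Tnfrsf21 against 48.9 for the next, and air animal 53 had 0.975 CPM of Tnfrsf4 against 0.568. In lung at 1 day, the library of air animal 42 was the deepest, with a total count, in units of 1e6, of 25.9 against 16.2 for the next.

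In blood at 1 day, air animal 38 had 35.9 CPM of Tnfrsf21 (next 25.3), air animal 42 had 1.423 CPM of Tnfrsf9 (next 0.777), and silica animal 44 had 0.0609 CPM of Tnfrsf11b, a single count, where the others had 0. In blood at 6 months, silica animal 60 had 0.342 CPM of Tnfrsf4, below the next lowest at 1.05.

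Silica effects that differed between times or tissues were picked out by the edgeR interaction test. The effect on Tnfrsf8 in lung was higher at 6 months than at 1 day by 1.66 on the log2 scale (lower in silica in 6 of 6 libraries at 1 day). Blood minus lung, the effect on Tnfrsf9 at 1 day was -1.96, and at 6 months that on Tnfrsf11a was -0.99, on Tnfrsf21 -0.38 and on Tnfsf13 -0.80. With the animal as a block, Tnfrsf11a and Tnfrsf21 did not pass at 6 months (edgeR interaction, adjusted p = 0.105 and 0.114). Both calls were also lost in 16 of 23 fits that left out 1 library.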

How the results depend on the processing

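No result reversed its direction under any alternative run. For lung at 1 day, 4 members were called and the alternatives gave 3 to 5 (leaving out 1 library, 3 to 5). For lung at 6 months, 8 were called, with 6 to 8 on leaving out 1 library, 5 at a minimum count of 50, which tested fewer genes, and 3 in the test against a 1.2-fold change (Tnfrsf11a, Tnfrsf9 and Tnfsf13). In blood, 0 members were called under all settings except 2 fits that left out 1 library at 1 day (0 to 1). The lung time difference was called for 1 member, 2 with DESeq2 and 1 to 2 on leaving out 1 library.

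The tissue difference at 1 day was called for 1 member, with 2 by DESeq2, 0 at a minimum count of 50, where Tnfrsf9 was not tested, and 1 to 2 on leaving out 1 library. At 6 months it was called for 3, with 1 under the animal as a replicate block, 4 with DESeq2, upper-quartile factors or robust dispersions, and 1 to 4 on leaving out 1 library. The block changed no other call of a member and lowered the calls over all genes from 645 to 415 at 1 day and from 557 to 210 at 6 months. Where no cause is named, the cause was not tested. Counts below about 20 per library, as for Tnfrsf4 and Tnfsf9 in air lungs, limit the precision of these folds. The same holds for Tnfrsf9, with a median of 17 counts in air lungs at each time. Members that were not tested could have changed.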

Other observations

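The gene model named Tnf, the ligand of Tnfrsf1a and Tnfrsf1b, had 0 counts in 34 of 47 libraries and at most 39 in the others, and could not be tested. A gene model without a symbol, LOC103694380, was singled out after its values were seen. In 38 of 47 libraries exactly 1 of these models was at 0. Any model with counts in all 47 libraries would reach 34, since Tnf itself was at 0 in 34. LOC103694380 was at 0, where Tnf was not, in 3 air lungs at 1 day and 1 silica blood library at 6 months. No other gene model was opposed to Tnf in more libraries, and 2 models, LOC103694380 included, were in as many. LOC103694380 is not in the reference table used here, so what it encodes is not known from these sources.

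The summed counts of both models, an alternative also chosen after seeing the data, gave 1.52 to 4.06 CPM in air lungs and 6.29 to 16.6 CPM in silica lungs at 1 day, with a log2 fold change of 2.15 ± 0.27 (edgeR, adjusted p = 1.0e-04). At 6 months the sum was 3.89 to 5.37 CPM in air and 7.02 to 12.7 CPM in silica lungs (1.12 ± 0.15, edgeR, adjusted p = 5.2e-04). LOC103694380 alone had log2 fold changes of 2.74 ± 0.64 and 1.13 ± 0.15 in lung (edgeR, adjusted p = 0.0102 and 5.4e-04). At 1 day LOC103694380 was at 0 in 3 of 6 air lungs, where only Tnf had counts, and in 0 silica lungs. The fold of that model alone at 1 day includes those zeros. In blood the sum had log2 fold changes of 0.33 ± 0.15 at 1 day and -0.05 ± 0.17 at 6 months (edgeR, adjusted p = 0.370 and 0.948).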
